A study of Homo sapiens with 8 samples.

Results

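The genes that encode the subunits, activators, inhibitor and assembly factors of the proteasome were examined in 8 RNA-seq libraries from 2 clear cell renal cell carcinoma (ccRCC) cell lines, A498 and 786-O. Members were taken by symbol, as PSMA to PSMG followed by a number, leaving out PSMB8, PSMB9 and pseudogenes. This gave 46 of the 18693 genes with protein-coding RefSeq (NM) entries in the deposited tables, and 44 of them averaged 1 FPKM or more (read fragments scaled by transcript length and library depth) and were tested among 10503 genes. PSMA8, a testis alpha subunit, was listed at 0 in all 8 libraries, and PSMB11, the beta subunit of the thymus, lay between 0 and 0.0274 FPKM.

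Each line had 4 libraries. In 2 of them the cells had received non-targeting control (NTC) siRNA, and in 1 each an siRNA, here siRNA 1 and siRNA 2, against SLINKY, the long intergenic non-coding RNA that the study investigated. All siRNAs were given with Lipofectamine 2000 at 50 nM for 16 hr. A498 was grown in DMEM and 786-O in RPMI-1640, so line and medium cannot be told apart. The labels do not state that the NTC libraries came from separate cultures, so p-values measure the spread between these libraries, which may be technical.

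The proteasome degrades proteins that carry ubiquitin chains. Its core is a stack of outer alpha rings (PSMA), which gate the entrance, and inner beta rings (PSMB), which hold the proteolytic sites. A regulatory particle of ATPases (PSMC) and non-ATPase subunits (PSMD) binds the chains, unfolds the substrate and removes ubiquitin, while other caps (PSME) replace it in part of the particles and dedicated chaperones (PSMG, PSMD5, PSMD9, PSMD10) assemble the complex.

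The libraries held an estimated 25072717 to 64539142 mapped reads. The least covered tested member, PSME4 in A498 with siRNA 2, still had about 204 reads per kilobase, and the median over members and libraries was 4608. SLINKY was listed at 14.6 and 16.1 FPKM with NTC and at 1.64 and 3.01 FPKM with the siRNAs in A498. In 786-O it was at 1.45 and 1.39 FPKM with NTC and at 0.0569 and 0.594 FPKM with the siRNAs, below NTC in each line. Of the kidney and ccRCC markers, PAX8, PAX2, VIM, KRT8, KRT18 and EPAS1 were above 1 FPKM in every library. CA9 reached at most 0.559 FPKM, and NDUFA4L2 (now COXFA4L2) at most 0.360 FPKM. Of the 8 markers of blood, endothelium, stroma and liver, the pan-leukocyte gene PTPRC and the T cell gene CD3E were at 0 throughout, and PECAM1, VWF and ALB reached at most 0.0778 FPKM. CD68 was at 138 to 151 FPKM in A498 and 1.701 to 5.197 FPKM in 786-O, COL1A1 at 2.87 to 3.42 and 0.186 to 0.273 FPKM, and ACTA2 at 14.7 to 16.5 and 4.35 to 7.99 FPKM. Their part in the differences between the lines was not tested.

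Promoter sequence was searched because many proteasome genes are known targets of NFE2L1, a transcription factor that binds antioxidant response elements. Its own mRNA was one of those that differed most between the lines among the pathway genes given further on. Any part of NFE2L1, or of NFE2L2 and NFE2L3 of the same family, in the differences of the members between the lines was not tested. The RefSeq promoter table used here (GRCh38.p14) gave 48 start sites for 40 of the 46 members, and PSMA7, PSMB1, PSMB6, PSMB7, PSMD4 and PSMG3 were not analysed for promoter sequence. Each start had a window from 250 bases before to 50 bases after the start. Windows of 1 gene can overlap. The core of the element, TGACNNNGC on either strand, was found in 14 of the 48 windows (29.2%), against 14.7% of the 12664 windows of all tested genes. CCAAT was found in 39.6% of the members' windows against 34.9%, and GGGCGG in 66.7% against 67.4%. The 14 genes with the core differed between the lines in either direction, with 4 higher in A498, 6 lower and 4 that did not pass the test, and without it 10 were higher, 11 lower and 3 did not pass. The 4 stretches below show the core, in capitals, in a gene that was higher in A498 (PSMB3), in 2 that were lower (PSMD12 and PSMG1) and in 1 that did not pass the test (PSMA4). Each is written 5′ to 3′ on the strand of the gene, at chr17:38752607-38752675 (plus strand), chr17:67366704-67366772 (minus), chr21:39183596-39183664 (minus) and chr15:78540630-78540698 (plus). A match of letters is not a bound site, and a window without the letters says nothing of the factor.
PSMB3: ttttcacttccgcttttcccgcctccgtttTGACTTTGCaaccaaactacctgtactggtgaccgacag
PSMD12: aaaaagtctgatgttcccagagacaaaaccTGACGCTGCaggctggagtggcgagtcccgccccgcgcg
PSMG1: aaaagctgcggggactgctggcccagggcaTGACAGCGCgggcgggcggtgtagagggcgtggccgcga
PSMA4: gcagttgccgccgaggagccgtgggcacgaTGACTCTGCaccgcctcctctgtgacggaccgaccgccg

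In both lines the members formed an abundant group of transcripts. Their summed level was 7195 ± 84.4 FPKM in A498 and 7124 ± 116 FPKM in 786-O (mean ± SD over the 4 libraries of a line, as throughout). This was 1.38% to 1.45% of the FPKM summed over all genes with NM entries. The beta ring was the most abundant group, with 2566 ± 76.4 FPKM summed over its 7 genes in A498 and 2571 ± 82.2 in 786-O. Summed alpha ring mRNA was 1640.1 ± 44.6 FPKM in A498 and 1731 ± 23.8 in 786-O. PSMB3, a structural beta subunit, was the highest gene of A498 at 587 ± 21.2 FPKM, whereas PSMA7, an alpha subunit, was the highest of 786-O at 699 ± 35.4 FPKM. PSME4, the large single-chain cap, was the lowest tested member of both, at 7.74 ± 0.278 and 9.005 ± 0.563 FPKM. Below the core subunits lay the assembly factors PSMD5, at 10.02 ± 0.309 and 12.1 ± 0.362 FPKM, and PSMG4, at 19.6 ± 2.42 and 35.6 ± 1.95 FPKM. Not all assembly factors lay so low, as PSMG3 was at 141 ± 9.14 and 68.4 ± 3.73 FPKM.

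The order of the levels was alike in the lines, with r = 0.964 on log2 levels and rho = 0.961 across the 44 genes, which are not independent and were measured in the same libraries. Of the 43 pairs of neighbours in that order, 25 in A498 and 27 in 786-O had ranges that overlapped. The coefficient of variation over the 4 libraries of a line had a median of 3.71% in A498 and 3.72% in 786-O for the members, against 6.21% and 5.84% for all tested genes. These genes were not matched to the members for level, so the values do not show that the members were steadier than genes of like level. A coefficient above 10% was found only for PSMD1, PSMG1 and PSMG4 in A498 and PSMA3, PSMG1 and PSMG2 in 786-O. So 3 of the 4 core chaperones were among the members with the widest spread. That spread includes any difference between NTC and siRNA libraries. For PSMG4 in A498 it lay between them, with 21.6 and 21.8 FPKM with NTC and 17.95 and 17.2 FPKM with the siRNAs.

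**Figure D1:**
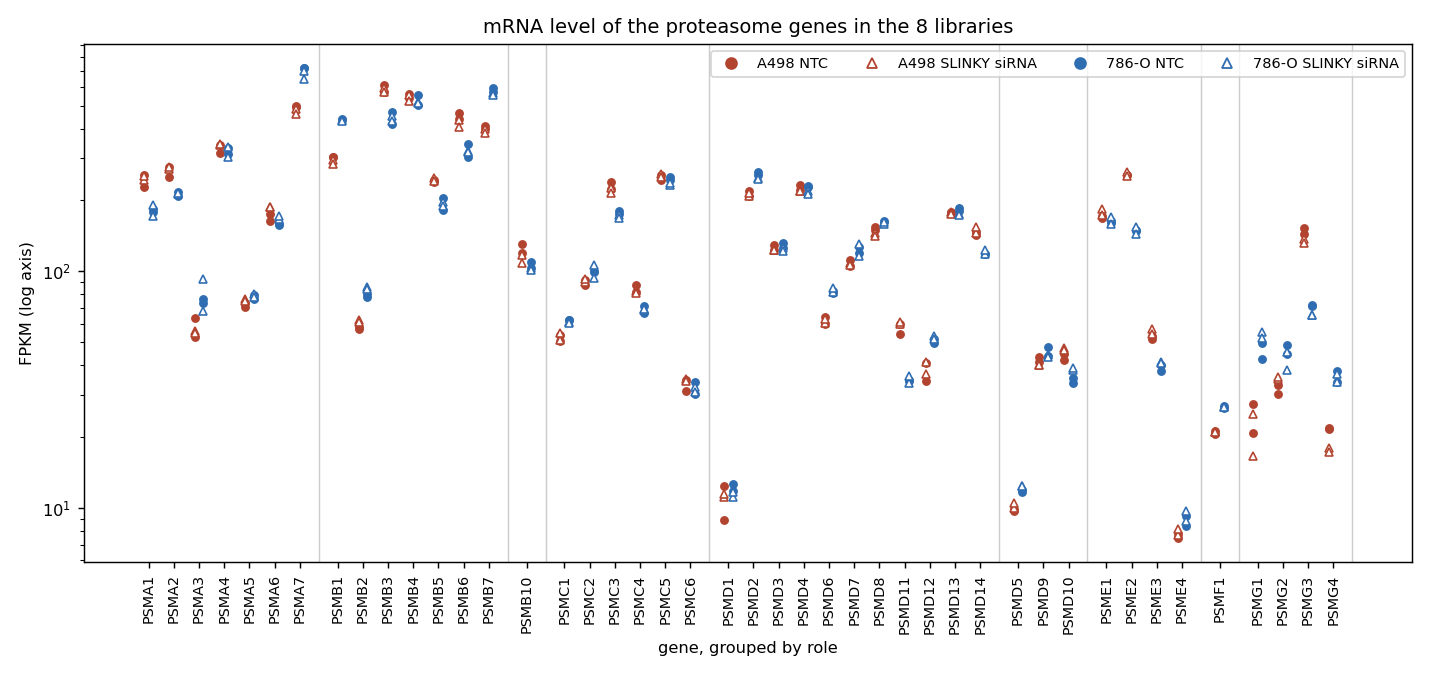
Level of the 44 tested proteasome genes in each library, in FPKM on a log axis, with genes grouped by role (vertical lines) and A498 in red and 786-O in blue. Filled circles are the NTC libraries and open triangles the siRNA libraries. The marks of a gene lie close together for most genes, and the lines separate most widely at the core chaperones PSMG1, PSMG3 and PSMG4.

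The first comparison asked how the lines differ in these genes. Of the 44 members, 16 were higher in A498 and 20 were lower (limma on log2(FPKM + 0.1) over all 8 libraries with knockdown as a covariate, adjusted p under 0.05). Over all tested genes 40.6% were higher and 42.5% lower, 83% in all, so a share of 81.8% of the members was no more than the background. The libraries of the lines did not overlap for 33 of the 44 members (75%), against 77.3% of all genes. Differences were small. Their median size was 0.30 on the log2 scale for members and 0.50 for all tested genes, and the signed medians were -0.013 and -0.017. Only 21 members passed the test with a difference past 0.32 on the log2 scale, the fold threshold used in the study, which is 47.7% of those tested against 65.3% of all genes. Past 2-fold there were 2, PSMG1 and PSMG3, which is 4.55% against 23.3%. The background genes were not matched to the members for level, so whether genes of like level differed as little was not examined. In such bulk RNA, less RNA per cell and fewer cells that express a gene cannot be told apart.

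**Figure D2:**
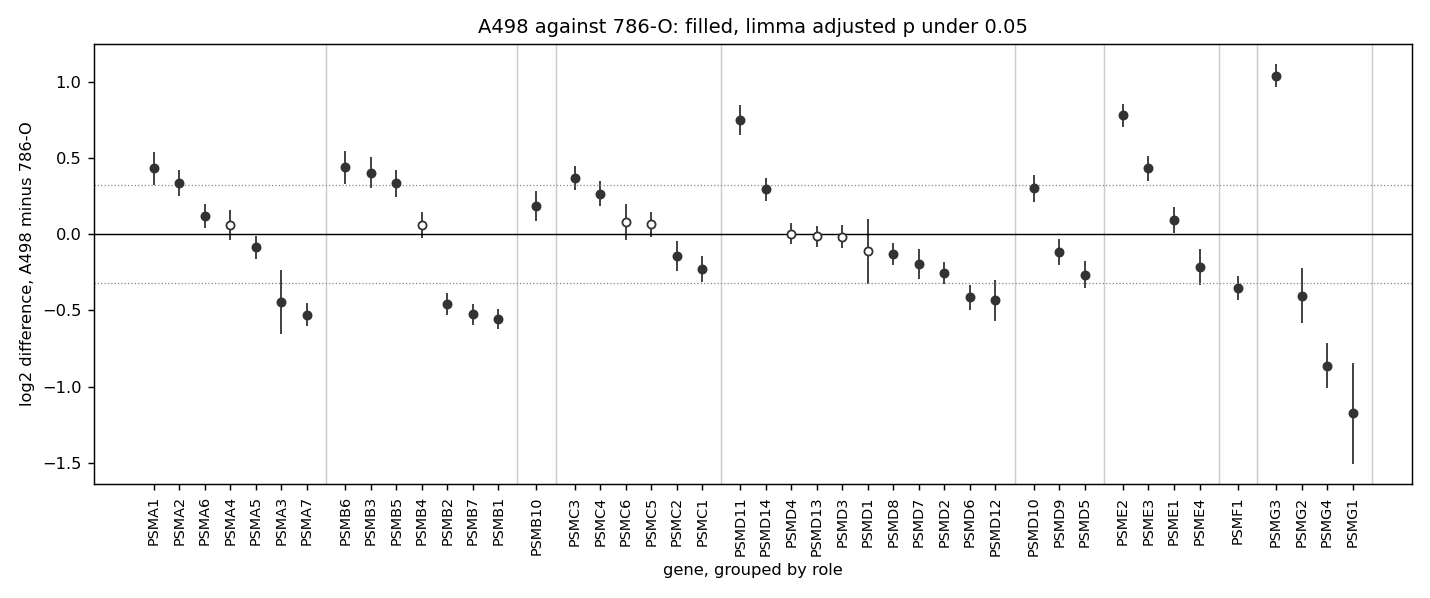
Difference between the lines for each tested member, as A498 minus 786-O on the log2(FPKM + 0.1) scale, with 95% intervals from limma, grouped by role. Filled points passed an adjusted p of 0.05, and dotted lines mark a log2 difference of 0.32. Each larger group holds genes on both sides of 0, and the widest span, from -1.17 to 1.04, is that of PSMG1 to PSMG4.

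The largest differences were those of 3 core chaperones, PSMG1, PSMG3 and PSMG4. The 4 core chaperones act as pairs, PSMG1 with PSMG2 and PSMG3 with PSMG4, at the start of alpha ring assembly. Values are given in the order NTC 1, NTC 2, siRNA 1, siRNA 2. PSMG3 (chr7:1606970-1609668, hg19) was at 153 and 143 FPKM with NTC and 137 and 131 FPKM with the siRNAs in A498, and at 71.1 and 72.02 FPKM with NTC and 65.2 and 65.1 FPKM with the siRNAs in 786-O. Every A498 library was thus above every 786-O library, and the difference was 1.04 ± 0.034 (SE, log2), or 2.06-fold (limma, adjusted p = 1.47e-09). Its partner PSMG4 (chr6:3259162-3268300) went the other way, with 21.6 and 21.8 FPKM with NTC and 17.95 and 17.2 FPKM with the siRNAs in A498 and 33.9 and 37.9 FPKM with NTC and 34.1 and 36.7 FPKM with the siRNAs in 786-O. Again the lines did not overlap, with a difference of -0.86 ± 0.066 (limma, adjusted p = 8.72e-07). The ratio of PSMG3 to PSMG4 was therefore 7.23 ± 0.518 in A498 and 1.92 ± 0.133 in 786-O.

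PSMG1 (chr21:40547372-40555440) was at 20.7 and 27.5 FPKM with NTC and 24.97 and 16.6 FPKM with the siRNAs in A498 and at 42.7 and 49.99 FPKM with NTC and 55.2 and 52.5 FPKM with the siRNAs in 786-O. It was the member with the largest difference, -1.17 ± 0.15 or 2.26-fold lower in A498 (limma, adjusted p = 3.70e-05), and also the one with the widest spread within A498. All 3 PSMG1 entries had a failed status in 786-O NTC 2, so the level in that library is uncertain. PSMG2 (chr18:12658738-12725739) was at 30.2 and 33.1 FPKM with NTC and 35.2 and 35.6 FPKM with the siRNAs in A498 and at 48.9 and 44.8 FPKM with NTC and 38.3 and 45.6 FPKM with the siRNAs in 786-O. The lines did not overlap here either, although the highest A498 library, at 35.6 FPKM, came close to the lowest 786-O library, at 38.3 FPKM. Its difference was -0.40 ± 0.08 (limma, adjusted p = 0.00102), and it did not pass with the siRNA libraries alone (-0.24, adjusted p = 0.0534). A PSMG2 entry overlaps CEP76 and non-coding entries and carried a low-data status in all 8 libraries, and the files state no strand, so its level is uncertain.

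**Figure D3:**
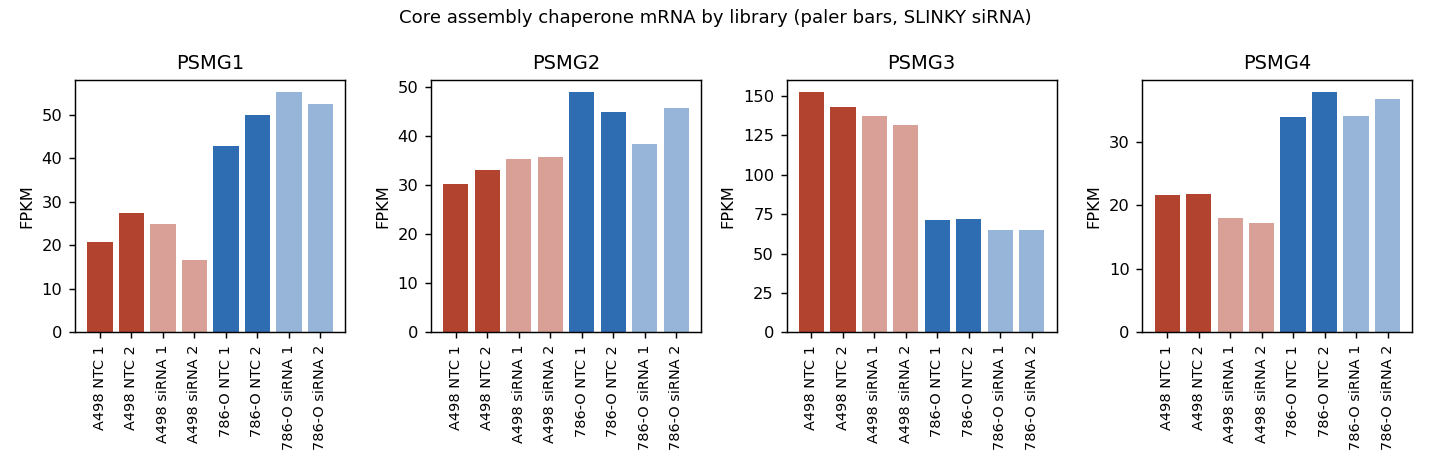
Level of the core assembly chaperones PSMG1 to PSMG4 in each library, in FPKM on a linear axis from 0. A498 is red and 786-O blue, and paler bars are the siRNA libraries. PSMG3 was higher and PSMG1, PSMG2 and PSMG4 were lower in every A498 library than in every 786-O library.

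Deposited levels of PSMG4 are split over 3 RefSeq entries, 2 of which cover the whole locus while a shorter one ends at position 3264097. The whole-locus entry with the higher mean was at 4.09, 8.93, 5.08 and 6.42 FPKM in the A498 libraries (NTC, NTC, siRNA 1, siRNA 2) and at 23.7, 21.5, 23.3 and 25.2 FPKM in 786-O. The other whole-locus entry was at 6.46, 5.63, 8.26 and 5.81 FPKM in A498 and at 2.13, 2.13, 1.64 and 1.10 FPKM in 786-O. So the entries differed between the lines in opposite directions, and neither overlapped. The shorter entry was at 11.1, 7.27, 4.62 and 4.95 FPKM in A498 and at 8.09, 14.2, 9.12 and 10.4 FPKM in 786-O, where the lines did overlap. With the entry of the highest mean in place of the sum, the difference of PSMG4 was -1.98 in place of -0.86. Cufflinks divides 36-base reads between entries that share exons, so the split is less certain than the sum.

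**Figure D4:**
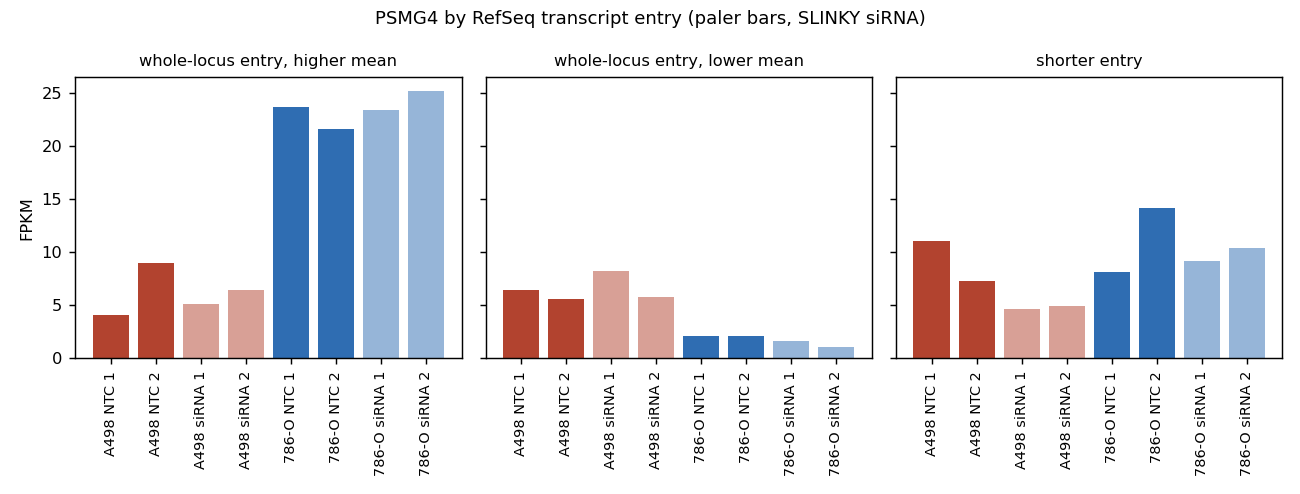
PSMG4 by RefSeq transcript entry in each library, in FPKM on a linear axis shared by the 3 panels. A498 is red, 786-O blue, and paler bars are the siRNA libraries. The entry on the left was at 4.09 to 8.93 FPKM in A498 and 21.5 to 25.2 FPKM in 786-O, and the shorter entry on the right was lower with both siRNAs than with NTC in A498 only.

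Alpha ring genes split evenly, with 3 higher in A498, 3 lower and 1, PSMA4, that did not pass. PSMA1 was at 227 and 254 FPKM with NTC and 242 and 252 FPKM with the siRNAs in A498 against 178 and 183 FPKM with NTC and 171 and 189.6 FPKM with the siRNAs in 786-O, a difference of 0.43 ± 0.048 (limma, adjusted p = 1.43e-05). PSMA7 was at 499 and 496 FPKM with NTC and 484 and 461 FPKM with the siRNAs in A498 and at 719 and 726 FPKM with NTC and 702 and 648 FPKM with the siRNAs in 786-O, 1.44-fold lower in A498 (log2 -0.53, limma, adjusted p = 2.73e-07). Neither gene overlapped between the lines. PSMA3 was at 52.8 and 63.3 FPKM with NTC and 56.1 and 54.96 FPKM with the siRNAs in A498 and 73.5 and 76.5 FPKM with NTC and 68.2 and 92.96 FPKM with the siRNAs in 786-O, with no overlap and a difference of -0.45 ± 0.094 (adjusted p = 0.00137). Its entries had a failed status in both 786-O NTC libraries and overlap the antisense transcript PSMA3-AS1, so its level is uncertain. PSMA2 (0.34) and PSMA6 (0.12) were higher and PSMA5 (-0.084, adjusted p = 0.0406) was lower, and the call on PSMA5 was lost when any 1 of 7 libraries was left out.

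Beta ring genes also split, with 3 higher, 3 lower and PSMB4 not passing. The proteolytic subunits did not move together. PSMB5, which carries the chymotrypsin-like site, was at 244 and 239 FPKM with NTC and 248 and 240.3 FPKM with the siRNAs in A498 and at 181 and 203 FPKM with NTC and 197 and 189 FPKM with the siRNAs in 786-O. PSMB6, with the caspase-like site, was at 465 and 440.1 FPKM with NTC and 436 and 408 FPKM with the siRNAs in A498 and at 303 and 344 FPKM with NTC and 322 and 320.1 FPKM with the siRNAs in 786-O. Both were higher in A498 without overlap, by 0.34 ± 0.04 and 0.44 ± 0.047 on the log2 scale (limma, adjusted p = 2.71e-05 and 1.16e-05). PSMB7, with the trypsin-like site, was at 409.6 and 397 FPKM with NTC and 398 and 383 FPKM with the siRNAs in A498 and at 572 and 596 FPKM with NTC and 564 and 555 FPKM with the siRNAs in 786-O, and so was lower in every A498 library (log2 -0.53 ± 0.03, adjusted p = 1.02e-07).

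Structural beta subunits showed the same division. PSMB3 was at 615 and 571 FPKM with NTC and 592 and 570.4 FPKM with the siRNAs in A498 and at 418 and 472 FPKM with NTC and 454 and 431 FPKM with the siRNAs in 786-O, higher in A498 by 0.41 (limma, adjusted p = 1.54e-05). PSMB1 was at 303 and 303 FPKM with NTC and 295 and 284 FPKM with the siRNAs in A498 and at 442 and 434 FPKM with NTC and 437 and 429.6 FPKM with the siRNAs in 786-O, the largest difference of a core subunit (-0.56, adjusted p = 5.61e-08). PSMB2 was at 57.3 and 58.2 FPKM with NTC and 62.3 and 61.1 FPKM with the siRNAs in A498 and at 77.7 and 80.5 FPKM with NTC and 85.98 and 84.5 FPKM with the siRNAs in 786-O, lower in A498 (log2 -0.46, adjusted p = 3.94e-07). None of these 3 genes overlapped between the lines.

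The inducible subunits, which replace the constitutive proteolytic subunits in the immunoproteasome, were all higher in A498. PSMB10, which takes the place of PSMB7, was at 130.2 and 119.8 FPKM with NTC and 117 and 108 FPKM with the siRNAs in A498 and at 109 and 103 FPKM with NTC and 103 and 101 FPKM with the siRNAs in 786-O. These ranges overlapped, and the difference of 0.19 ± 0.044 (limma, adjusted p = 0.00275) did not pass with the siRNA libraries alone (0.14, adjusted p = 0.0639). PSMB8 and PSMB9, which lie outside the rule and replace PSMB5 and PSMB6, were higher by 0.99 ± 0.035 and 1.39 ± 0.061 (adjusted p = 2.73e-09 and 1.20e-08), and the peptide transporter genes TAP1 and TAP2 by 0.97 and 0.38. TAPBP, named for the same transporter, went the other way. It was at 48.6 to 53.0 FPKM in A498 and 61.0 to 64.8 FPKM in 786-O. Relative to the subunit it replaces, PSMB10 was at 0.299 ± 0.0149 in A498 and 0.182 ± 0.00707 in 786-O, PSMB8 at 0.694 ± 0.0119 and 0.441 ± 0.0157, and PSMB9 at 0.239 ± 0.00849 and 0.123 ± 0.00761. Each of 6 ratios computed, with those of PSMG3 to PSMG4, PSMG2 to PSMG1 and PSME2 to PSME1, was higher in all 4 A498 libraries than in any 786-O library. These ratios were chosen with the levels of the genes known and are given as a description. The levels of PSMB8, PSMB9, TAP1, TAP2 and TAPBP are sums over 16, 8, 8, 16 and 15 NM entries. How reads were divided among those entries was not examined, so these levels and the ratios of PSMB8 and PSMB9 are less certain.

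Among the caps, PSME1 and PSME2 form one activator and PSME3 another. PSME2 was at 255 and 254 FPKM with NTC and 263 and 253 FPKM with the siRNAs in A498 and at 149 and 149 FPKM with NTC and 154 and 144 FPKM with the siRNAs in 786-O, 1.72-fold higher in A498 without overlap (log2 0.78 ± 0.033, limma, adjusted p = 9.89e-09). Its partner PSME1 was at 172 and 168 FPKM with NTC and 184 and 173 FPKM with the siRNAs in A498 and at 160.3 and 163 FPKM with NTC and 170.3 and 159 FPKM with the siRNAs in 786-O, where the ranges overlapped. The difference of PSME1 was 0.10 ± 0.037 (adjusted p = 0.0346), a call that was lost when any 1 of 5 libraries was left out. The ratio of PSME2 to PSME1 was 1.47 ± 0.0356 in A498 and 0.914 ± 0.00971 in 786-O.

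PSME3, the activator found in the nucleus, was at 51.9 and 53.5 FPKM with NTC and 56.9 and 54.1 FPKM with the siRNAs in A498 and at 37.7 and 40.1 FPKM with NTC and 41.3 and 41.00 FPKM with the siRNAs in 786-O, with no overlap and a difference of 0.43 ± 0.037 (limma, adjusted p = 1.84e-06). PSME4 (-0.21, adjusted p = 0.004004) and the inhibitor PSMF1 (-0.35, adjusted p = 5.70e-06) were lower in A498. PSMF1 was among the steadiest members, at 20.9 ± 0.232 FPKM in A498 and 26.6 ± 0.214 FPKM in 786-O.

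In the regulatory particle most differences were smaller. Of the 6 ATPases, PSMC3 and PSMC4 were higher in A498, PSMC1 and PSMC2 were lower, and PSMC5 and PSMC6 did not pass. PSMC3 was at 239 and 222 FPKM with NTC and 225 and 215 FPKM with the siRNAs in A498 and at 175 and 180.4 FPKM with NTC and 173 and 168 FPKM with the siRNAs in 786-O, with no overlap (0.37 ± 0.036, limma, adjusted p = 5.04e-06). Of the 11 non-ATPase subunits, 2 were higher, 5 lower and 4 did not pass, namely PSMD1, PSMD3, PSMD4 and PSMD13. PSMD11, a lid subunit that contacts the core, was the exception in size. It was at 54.05 and 59.7 FPKM with NTC and 59.7 and 61.2 FPKM with the siRNAs in A498 and at 34.5 and 34.5 FPKM with NTC and 33.9 and 35.9 FPKM with the siRNAs in 786-O, 1.69-fold higher in A498 (0.75 ± 0.044, adjusted p = 1.00e-07).

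PSMD12, another lid subunit, was at 34.4 and 40.8 FPKM with NTC and 36.7 and 41.3 FPKM with the siRNAs in A498 and at 51.9 and 49.7 FPKM with NTC and 53.2 and 51.8 FPKM with the siRNAs in 786-O, lower in A498 without overlap (-0.43 ± 0.059, limma, adjusted p = 6.98e-05). PSMD14, the deubiquitinase of the lid, was higher by 0.30 (adjusted p = 1.72e-05). For the ubiquitin receptor PSMD4 the difference was 0.0046, with a 95% interval from -0.066 to 0.075, and for PSMD13 it was -0.011, from -0.08 to 0.058, so neither interval reached 0.32. The scaffold PSMD1 had the widest interval of those that did not pass, from -0.33 to 0.10. Of the base chaperones, PSMD10, also known as the oncoprotein gankyrin, was higher (0.30, adjusted p = 3.87e-05), and PSMD5 (-0.27, adjusted p = 1.26e-04) and PSMD9 (-0.12, adjusted p = 0.0177) were lower.

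Of 35 other genes of the pathway, 33 were tested, and 13 were higher in A498, 18 were lower and 2 did not pass. The share called was 93.9%, against 81.8% of the members and 83% of all tested genes, and the difference between these shares was not tested. Their median size was 0.38 on the log2 scale. NFE2L1 was at 81.6 and 82.8 FPKM with NTC and 80.4 and 78.8 FPKM with the siRNAs in A498 and at 37.7 and 38.7 FPKM with NTC and 38.7 and 36.4 FPKM with the siRNAs in 786-O, 2.13-fold higher in A498 (limma, adjusted p = 1.23e-09). Of the same family, NFE2L2 was higher (0.61, limma, adjusted p = 5.63e-07) and NFE2L3 was lower (-0.33, adjusted p = 7.83e-05). NGLY1, the glycanase that processes the NFE2L1 protein, was lower (-0.84, adjusted p = 2.24e-07). Of the 8 ubiquitin receptors and shuttles 7 were lower, a direction found for 42.5% of all tested genes, with UBQLN2 at -1.20 as the largest, and ZFAND5 was higher by 0.59. POMP, the chaperone of the beta ring, was higher by 0.39, and PAAF1, a factor of base assembly, was lower (-0.68). The ubiquitin gene UBB was higher by 0.61.

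The second comparison asked whether silencing SLINKY moved these genes. No member passed limma's test over both lines, within A498, within 786-O, or for the interaction of knockdown and line. Over all tested genes 0% were called over both lines, 0.0286% within A498, 0% within 786-O and 0.00952% for the interaction. At an unadjusted p under 0.05 there were 7 members over both lines (PSMA6, PSMA7, PSMB2, PSMB10, PSMD10, PSMG3 and PSMG4; 15.9% against 11.9% of all genes). Within A498 there were 2 (PSMA6 and PSMG4, 4.55% against 6.08%), within 786-O 2 (PSMD10 and PSMG3, 4.55% against 3.79%) and for the interaction 2 (PSMG2 and PSMG4, 4.55% against 1.82%). The median difference over both lines was 0.0018 on the log2 scale for the members and 0.012 for all genes, and its median size was 0.042 against 0.062. Here too the background genes were not matched to the members for level. The 33 other pathway genes tested gave no call either, with a median of -0.0013 and a median size of 0.035.

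Each siRNA library was also set singly against the NTC mean of its line. The log2 differences of the 44 members ran from -0.54 to 0.17 with siRNA 2 in A498 and from -0.27 to 0.15 with siRNA 1. In 786-O they ran from -0.29 to 0.25 with siRNA 1 and from -0.16 to 0.31 with siRNA 2. These ends were PSMG2 and PSMG1 with siRNA 1 and PSMA7 and PSMA3 with siRNA 2. The levels of PSMG1, PSMG2 and PSMA3 in 786-O are uncertain, given the status of their entries. Past the threshold of 0.32 there were 0 members with siRNA 1 in A498 (3.81% of all genes), 2 with siRNA 2 in A498 (PSMG1 and PSMG4, 4.55% against 5.49%), and 0 with siRNA 1 and siRNA 2 in 786-O (5.91% and 3.92% of all genes). The NTC libraries set against each other gave 2 members in A498 (PSMD1 and PSMG1, against 4.67% of all genes) and 0 in 786-O (4.63%). No member was past 0.32 in the same direction in all 4 siRNA libraries (0.0762% of all genes), and 19 of 44, or 43.2%, had the same sign in all 4 (32% of all genes). The siRNA libraries did not overlap the NTC libraries for 18 members in A498 (40.9% against 37.3%) and 17 in 786-O (38.6% against 32.8%). Both siRNAs of a line are set against the same NTC libraries.

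**Figure D5:**
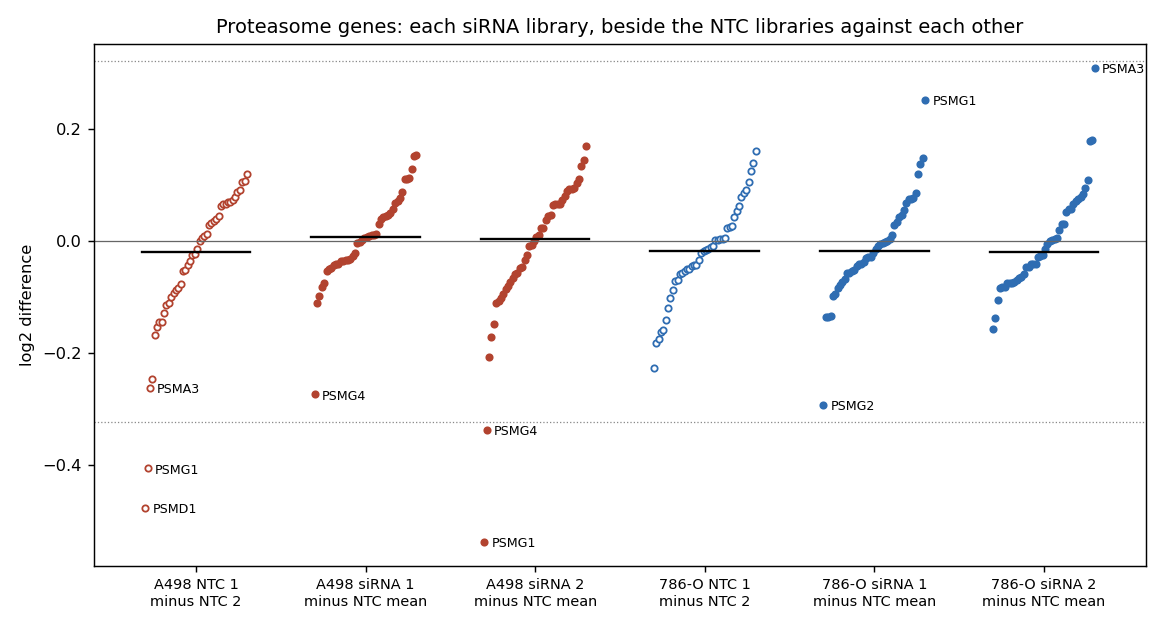
Log2 difference of each tested member in each siRNA library against the NTC mean of its line (filled), and of NTC 1 against NTC 2 (open), with A498 in red and 786-O in blue. Black bars are medians, points are sorted within a column, dotted lines mark 0.32, and some genes beyond 0.24 are named. The medians lie between -0.019 and 0.0069, and the median size was 0.044 to 0.073 in the siRNA columns and 0.053 and 0.075 in the NTC columns.

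PSMG4, the member that the study's own list of responsive genes names, was chosen there on these libraries, so its values are no independent evidence. In A498 it was at 21.6 and 21.8 FPKM with NTC and at 17.95 and 17.2 FPKM with the siRNAs, which did not overlap. In 786-O it was at 33.9 and 37.9 FPKM with NTC and at 34.1 and 36.7 FPKM with the siRNAs, and these did overlap. The difference was -0.30 in A498 (95% interval -0.47 to -0.14, limma, adjusted p = 0.666) and -0.019 in 786-O (-0.22 to 0.18, adjusted p = 0.986). The interaction was -0.29 (adjusted p = 0.9998). Over both lines it was -0.16 ± 0.066 (adjusted p = 0.399), and the two-sided exact permutation test within lines gave p = 0.167, where 36 arrangements allow no less than 0.0556. With the entry of the highest mean in place of the sum, the value over both lines was 0.0097 (adjusted p = 0.989). In A498 the shorter entry was the only one whose siRNA libraries both lay below its NTC libraries, at 11.1 and 7.27 FPKM with NTC and 4.62 and 4.95 FPKM with the siRNAs.

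Other members with the largest differences over both lines were PSMG3 (-0.14 ± 0.034) and PSMB10 (-0.10 ± 0.044) on the lower side, and PSMD10 (0.14 ± 0.038), PSMA6 (0.12 ± 0.035) and PSMB2 (0.10 ± 0.032) on the higher side. Each of these 5 had the same sign in all 4 siRNA libraries, and their adjusted p in limma lay between 0.298 and 0.407. PSMD10 was at 42.1 and 44.7 FPKM with NTC and 47.5 and 46.3 FPKM with the siRNAs in A498, and at 33.7 and 35.4 FPKM and 38.3 and 39.1 FPKM in 786-O, without overlap in either line. PSMA6 was at 162 and 175 FPKM with NTC and 188 and 187 FPKM with the siRNAs in A498, and at 157 and 159 FPKM and 166 and 170.4 FPKM in 786-O, again without overlap. The NTC libraries of PSMA6 in A498 differed by -0.11 on the log2 scale, against 0.15 and 0.15 for the siRNAs.

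PSMG1 was the least steady member under the siRNAs. Against the NTC mean it was at 0.051 with siRNA 1 and -0.54 with siRNA 2 in A498, and at 0.25 and 0.18 in 786-O (log2). The NTC libraries themselves differed by -0.41 in A498 and -0.23 in 786-O. Without siRNA 1 of A498, which leaves siRNA 2 as the only knockdown library of that line, PSMG1 was called at -0.52 (limma, adjusted p = 0.00686), 1 of 156 genes called in that fit. There the lone siRNA library is assumed to vary like the 2 NTC libraries, from which, with limma's trend over genes, the spread was taken. PSMG2 was at 0.15 and 0.17 in A498 and at -0.29 and -0.041 in 786-O, with an interaction of 0.33 (adjusted p = 0.9998).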

How the data were processed

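Total RNA from the cell lines was made into TruSeq RNA libraries and sequenced as single-end 36-base reads. The authors mapped reads to hg19 and deposited FPKM values for each library. The submitters' processing notes name TopHat2 2.0.0 and Cufflinks 2.0.2. No scaling between libraries is stated. Depth is an estimate, from entries with a single read.

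RefSeq NM entries (35951 of 75378 entries a table, 97.7% of them matched to a current symbol) were summed per symbol. Genes with a mean of at least 1 FPKM were tested on log2(FPKM + 0.1), a scale that understates changes of low genes, with limma 3.58.1 in R 4.3.3 with a variance trend and Benjamini-Hochberg adjustment at 0.05 over all 10503 genes. The scripts were tested on simulated data. Knockdown was compared over both lines with line as a covariate, within each line and as an interaction, with the siRNAs as replicates. The same 2 siRNAs were used in both lines, so the knockdown libraries of the pooled fit are not all independent in reagent. Python 3.11.15, numpy 2.4.6, pandas 2.3.3, scipy 1.17.1 and matplotlib 3.10.9 were used for the rest. Alternatives were other pseudocounts, filters and scaling, the highest entry per symbol, NM with NR entries, limma without the trend, a replicate block, failed entries set missing and each library left out.

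Values in every library are given for PSMG1 to PSMG4, PSMB5, PSMB6, PSMB7, PSMB10, PSME1, PSME2 and the up to 8 members with the largest called difference in each direction between the lines. For the knockdown, any member called and the 3 with the largest difference in each direction are named. PSMC3IP and PSME3IP1, named after a partner, were left out. Members and lists were chosen with earlier results of these data known. In all, 13 of the 46 members overlap other entries, 9 of them non-coding ones. Some genes of the marker and pathway lists are not reported here by name.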

Additional observations from a re-analysis of the deposited data

Results flagged for a closer look

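Of the 88 sets of 4 libraries (44 members in 2 lines), 6 had 1 library that stood apart from the other 3 by Dixon's criterion, where chance gives about 1 in 20. The count is close to that rate, and the share over all tested genes is not given. The sets share libraries and mix NTC with siRNA libraries, so they are not independent. In A498 the library was NTC 1 each time. It had PSMA4 at 314.7 FPKM against 340.5 to 344.8 FPKM in the others and PSMC6 at 31.2 against 34.4 to 35.0 FPKM. In the same library PSMD3 was higher, at 129.7 against 122 to 123 FPKM, as was PSMD4, at 232 against 219 to 221 FPKM. PSMD9 was at 47.6 FPKM in 786-O NTC 2, against 43.4 to 44.1 FPKM in the others. In 786-O with siRNA 2, PSMD14 was at 123 FPKM against 118 to 119 FPKM.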

How the results depend on the processing

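No call on a member between the lines reversed under any alternative run. The count of 36 members was 35 with median-ratio scaling, 34 without limma's trend and 33 to 36 when each library was left out in turn, with PSMA5, PSME1 and PSMD9 lost and PSMC5 and PSMC6 gained in some. With NR entries added it was 37, PSMD1 being gained. With NTC libraries alone 7 calls were lost, and with siRNA libraries alone 6. For the knockdown, the highest entry per symbol turned PSMG4 over both lines to 0.0097. The count of members called within A498 was 0 to 1 when each library was left out, the 1 being PSMG1 without siRNA 1. With 1 siRNA library at a time, the count past 0.32 on the log2 scale became 3 for siRNA 1 in A498 and 1 for siRNA 2 in 786-O with the highest entry per symbol. With NTC 1 alone as control it became 1 for siRNA 1 in A498, 2 for siRNA 1 in 786-O and 1 for siRNA 2 in 786-O. For siRNA 2 in A498 it became 1 with a pseudocount of 1 FPKM and 1 with NR entries added. The cause was not tested. Shares of all genes in these runs are not given, so these counts have no background beside them. In the main run the shares of all genes were 3.81% to 5.91%.

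The labels do not pair libraries by replicate number, and for the knockdown libraries that number is the number of the siRNA. Deviations of same-numbered libraries correlated at 0.25 between NTC and knockdown in A498 and -0.031 in 786-O. Between the lines the values were -0.26 for NTC and 0.17 for knockdown. With a replicate block 35 members were called between the lines and 0 for the knockdown. Depth was estimated, so no counting intervals are given.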

Other observations

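PSMC3IP and PSME3IP1 encode partners of proteasome proteins and were not counted as members. PSMC3IP, a factor of meiotic recombination, was at 12.4 and 13.2 FPKM with NTC and 9.98 and 9.58 FPKM with the siRNAs in A498 and at 19.9 and 14.6 FPKM with NTC and 11.9 and 15.1 FPKM with the siRNAs in 786-O, and the lines overlapped. PSME3IP1 was at 33.1 to 35.5 FPKM in A498 and 33.5 to 37.4 FPKM in 786-O.

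PSMG1 is listed under 3 entries with the same outer bounds, and the division between them was uneven. In most libraries 1 entry held nearly the whole level. In A498 with siRNA 1 the level was split as 15.7 and 9.27 FPKM, and in 786-O with siRNA 2 as 43.4 and 9.04 FPKM. All 3 PSMG1 entries had a failed status in 786-O NTC 2.

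Of the 33 other pathway genes tested, 6 (18.2%) had an unadjusted p under 0.05 for the knockdown over both lines, against 11.9% of all tested genes, and none passed limma's adjusted test. UBQLN4, a ubiquitin shuttle, had the lowest p, with a log2 difference of -0.17 ± 0.039 (limma, adjusted p = 0.291). The ubiquitin receptor ADRM1 was at -0.13 (adjusted p = 0.378) and the deubiquitinase USP14 at 0.11 (adjusted p = 0.401).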
